A study of Mus musculus with 9 samples.

Results

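The genes described here encode the LIN28 proteins and the machinery that makes, tails and degrades let-7 microRNAs in mouse testis at postnatal day 10. They are Lin28a, Lin28b, Drosha, Dgcr8, Xpo5, Dicer1, Zcchc11 (now Tut4), Zcchc6 (now Tut7), Dis3l2 and Trim71. A row of the expression table was taken as a member when any gene name it carries equals one of these symbols or the newer names Tut4 and Tut7, in any letter case. This gave 10 genes in 12 transcript rows, of 23394 genes in 29661 rows in all. Testis RNA was sequenced from 3 samples labelled as Lin28a knockout and from 3 given as wild type, all of strain C57BL/6, and 3 further LIN28A CLIP samples of the same strain and age were not analysed here. The titles of the knockout libraries carry the tag cKO, and the labels name no promoter, Cre line or deleted exon. Whether separate animals stand behind the samples of a group is not stated. Each library group appears as a single pooled FPKM value (fragments per kilobase of transcript, scaled to library size), in a column labelled case and a column labelled control, so no spread between libraries can be given, and the depth behind each value is unknown.

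LIN28 proteins and let-7 microRNAs act against each other. The nuclear Microprocessor, made of the nuclease DROSHA and its RNA-binding partner DGCR8, cuts let-7 hairpins out of their primary transcripts, XPO5 carries the hairpins to the cytoplasm, and DICER1 cuts them to mature microRNAs. LIN28A binds the terminal loop of the hairpin, where its zinc knuckles recognise a GGAG motif, and recruits the uridylyltransferases ZCCHC11 and ZCCHC6, whose uridine tails mark the hairpin for the exonuclease DIS3L2. Trim71, the mouse counterpart of worm lin-41, is a classic let-7 target. In the postnatal mouse testis LIN28A is known as a marker of undifferentiated spermatogonia.

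The sequences that this machinery handles are shown first, because the seed defines the let-7 family and the loop holds the LIN28 motif. In the RefSeq microRNA table (GRCm38.p6), 10 mature let-7 and miR-98 sequences share the same seed, bases 2 to 8 from the 5′ end. They are assigned there to 12 genes, and the let-7a-2 precursor gene is not among these. Of all 1679 mature mouse sequences in that table, 11 carry this seed, while let-7j differs in it. Examples follow with the seed in capitals; they lie at chr13:48538239-48538260 (minus strand), chr13:48536078-48536099 (minus), chr9:106178846-106178867 (plus), chrX:151913229-151913250 (plus) and chr3:140028281-140028304 (plus).
let-7a-5p: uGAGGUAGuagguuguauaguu
let-7d-5p: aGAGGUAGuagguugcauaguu
let-7g-5p: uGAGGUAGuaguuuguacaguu
miR-98-5p: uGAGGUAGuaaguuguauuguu
let-7j: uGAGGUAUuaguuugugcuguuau

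The stretch between the mature arms, which forms the loop region, was searched for GGAG on the RNA strand in the 11 let-7 and miR-98 hairpins with both arms in the table. GGAG was present in 8 of them, ending 3 or 4 bases before the 3′ arm. Among other mouse hairpins whose stretch was of like length, 23 to 36 bases, 7 of 50 held the motif (14%), and among all 633 others 44 did (6.95%). A match of these letters is a description and not a measured binding site. Shown are 3 stretches with the motif in capitals and 2 without it; they lie at chr9:106178868-106178901 (plus), chr13:48538210-48538238 (minus), chr13:48537855-48537888 (minus), chr15:85707347-85707378 (plus) and chr15:85706638-85706663 (plus).
let-7g: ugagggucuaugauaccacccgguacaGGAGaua
let-7a-1: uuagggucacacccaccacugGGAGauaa
let-7f-1: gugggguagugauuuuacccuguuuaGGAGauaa
let-7b: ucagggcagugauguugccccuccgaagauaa
let-7c-2: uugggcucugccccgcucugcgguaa

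The let-7 hairpins themselves could not be followed in this table. Its 12 rows for let-7 and miR-98 precursors were listed at 0 FPKM in both columns, and so were all 629 rows of microRNA precursors, so these zeros say nothing about let-7 levels.

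Lin28a, the gene targeted in the libraries labelled knockout, was the member that differed. Its level was 23.4 FPKM in case and 8.82 FPKM in control. The column read by its name as the knockout was therefore the higher one, 2.66-fold, and the authors' deposited table gives a p of 5.62e-07 and a q-value of 0.00191. The direction is opposite to the one the label implies, no source used here gives the deleted stretch of the gene, and every direction below rests on the names of the columns. The test statistic in the authors' deposited table implies a standard error of 0.28 for the log2 ratio of 1.41, and a 95% interval of 1.81-fold to 3.90-fold. The single Lin28a row (NM_145833) was listed at mm10 chromosome 4, 134003330 to 134018816. These coordinates do not show which parts of the transcript held reads.

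Of the 11 member rows with a test, 1 had a q-value under 0.05 in the authors' deposited table, against 0.0514% of all 13629 tested rows (7 rows). Counting rows higher in case, it was 1 member row against 0.044% of tested rows (6 rows). At an unadjusted p under 0.05 it was again 1 of 11, against 1.28% of all tested rows, and the median p over all tested rows was 0.731. Fewer rows passed than a threshold of 0.05 gives when nothing differs. The authors' test may thus be overcautious, with p-values too high and the intervals given here too wide. Lin28a had the 4th smallest p of the tested rows in the authors' deposited table. By the size of the log2 ratio it was 182nd of the 13586 tested rows with both values above 0, or within the top 1.34%. Among the 7509 tested rows with a mean of at least 5 and under 50 FPKM it was 7th by that size.

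**Figure D1:**
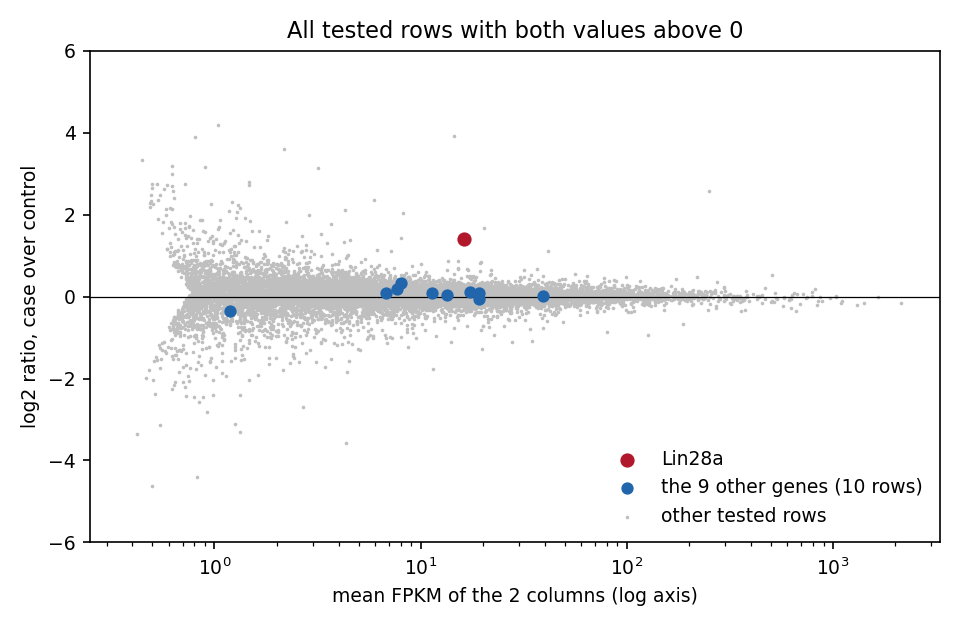
Log2 ratio of FPKM, case over control, against the mean FPKM of both columns (log axis) for the tested rows with both values above 0; the axis leaves out 19 rows beyond a log2 ratio of 6 in size. Lin28a (red) lies at 1.41, outside the band of rows at its level, while the 10 tested rows of the other 9 genes (blue) lie inside it.

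Lin28b, the paralog of Lin28a, showed no such difference. It was the lowest of the 10 genes in both columns, at 6.95 FPKM in case and 6.59 FPKM in control. The ratio was 1.05-fold, and the authors' deposited table gives p = 0.794. The implied 95% interval was 0.71-fold to 1.58-fold and does not reach the lower bound for Lin28a. In terms of FPKM, Lin28a was 3.37 times the level of Lin28b in case and 1.34 times in control. Both LIN28 genes together came to 30.4 FPKM in case and 15.4 FPKM in control, so the LIN28 total differed 1.97-fold through Lin28a. The Lin28b row (NM_001031772) lies at chromosome 10, 45376619 to 45470201.

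**Figure D2:**
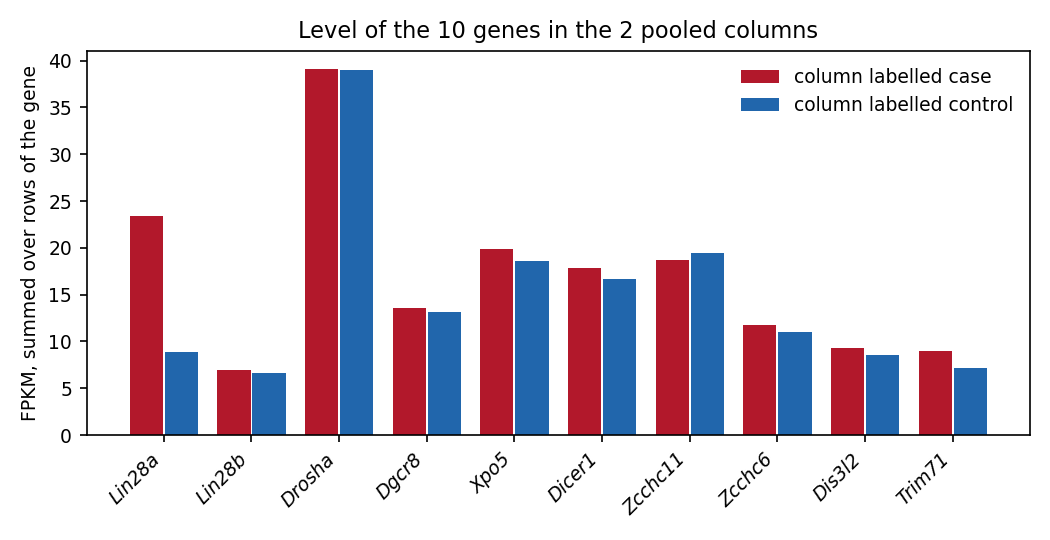
FPKM of the 10 genes, summed over the rows of each gene, in the column labelled case (red) and the column labelled control (blue); each bar is 1 pooled value with no error. Lin28a stands at 23.4 and 8.82 FPKM, and the bars of each other gene are within 1.26-fold of each other.

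The Microprocessor genes were close to equal in both columns. Drosha, the nuclease, was the most abundant member, at 39.1 FPKM in case and 39.0 FPKM in control. Its log2 ratio was 0.0029, with p = 0.991 in the authors' deposited table. The interval was 0.72-fold to 1.39-fold, and the sign of so small a difference turned negative when the columns were rescaled by the median ratio or the upper quartile. All of this came from one transcript row (NM_026799; chromosome 15, 12824815 to 12935291), since the other Drosha row (NM_001130149) was listed at 0 in both columns and not tested. Dgcr8 (NM_033324; chromosome 16, 18248883 to 18289168) was at 13.6 FPKM in case and 13.2 FPKM in control, with p = 0.870 in the authors' deposited table. The Dgcr8 interval was 0.71-fold to 1.49-fold. Drosha was thus 2.88 times as high as Dgcr8 per length in case and 2.97 times in control.

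Export and dicing genes likewise differed by less than the error of the authors' test. Xpo5 (NM_028198; chromosome 17, 46202855 to 46242299), the exportin of microRNA hairpins, was at 19.9 FPKM in case and 18.6 FPKM in control, 1.07-fold with an interval of 0.75-fold to 1.52-fold. Dicer1 (NM_148948; chromosome 12, 104687742 to 104751952) was at 17.9 FPKM in case and 16.7 FPKM in control, also 1.07-fold, with an interval of 0.77-fold to 1.49-fold. Their p-values in the authors' deposited table were 0.704 and 0.676.

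The uridylyltransferases that act with LIN28A gave small differences of opposite sign. Zcchc11 (NM_175472; chromosome 4, 108459426 to 108559415) was at 18.7 FPKM in case and 19.5 FPKM in control, and was the single member gene with a lower summed value in case. Zcchc6 (NM_153538; chromosome 13, 59769966 to 59823147) was at 11.8 FPKM in case and 11.0 FPKM in control. Neither difference passed the test: the authors' deposited table gives p = 0.821 for Zcchc11 and p = 0.719 for Zcchc6. The intervals ran from 0.69-fold to 1.34-fold for Zcchc11 and from 0.74-fold to 1.54-fold for Zcchc6. Zcchc11 was the higher of the pair in both columns, 1.59 times Zcchc6 in case and 1.77 times in control.

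Dis3l2, the exonuclease that removes uridylated let-7 precursors, had 2 transcript rows at chromosome 1, 86703804 to 87050097, whose values pointed in opposite directions. The main row (NM_153530) was at 8.20 FPKM in case and 7.17 FPKM in control, and the authors' deposited table gives p = 0.571. The minor row (NM_001172157) was at 1.05 FPKM in case and 1.33 FPKM in control, and the authors' deposited table gives p = 0.652. It made up 11.4% of the gene's FPKM in case and 15.7% in control. At this low level its interval was the widest of all members, 0.28-fold to 2.22-fold, against 0.72-fold to 1.82-fold for the main row. How reads shared by both transcripts were divided is not known here, so the split between them is uncertain. Summed, Dis3l2 was at 9.25 FPKM in case and 8.50 FPKM in control.

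Trim71, a TRIM-NHL protein that acts as a ubiquitin ligase and mRNA repressor, had the second largest ratio among the genes. It was at 9.0 FPKM in case and 7.13 FPKM in control (NM_001042503; chromosome 9, 114511273 to 114564369), 1.26-fold with an interval of 0.86-fold to 1.86-fold. The authors' deposited table gives p = 0.238, so it did not pass the test, and 16.4% of tested rows had a log2 ratio at least as large in size.

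**Figure D3:**
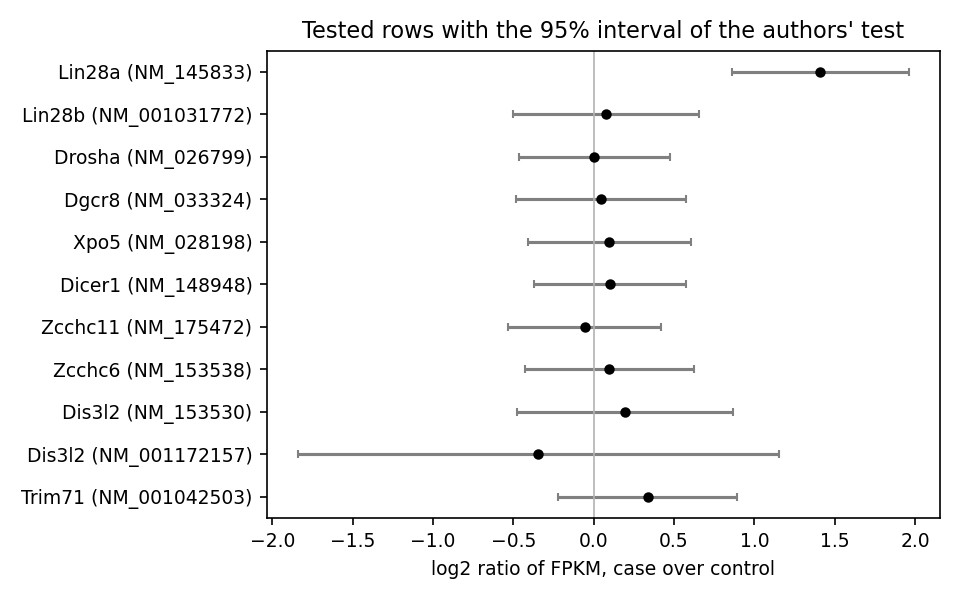
Log2 ratio of FPKM, case over control, of the 11 tested member rows (points) with the 95% interval implied by the authors' test statistic (lines). The Lin28a interval runs from 0.86 to 1.96, and the intervals of the other 10 rows all include 0.

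Set beside each other, the other 9 genes ranged from 0.963-fold to 1.26-fold with a median of 1.07-fold, and 68.2% of the 12666 genes with a mean of at least 1 FPKM fell in that range. Of these 9 genes, 8 had higher summed values in case, as did 60.8% of all genes at that level. After rescaling by the median ratio of the columns the counts were 7 of 9 (Drosha having turned) and 50.6% of all genes. Together the 9 genes came to 146 FPKM in case and 140 FPKM in control. All 10 tested rows of these genes had an upper bound below the Lin28a estimate of 1.41 on the log2 scale, and 7 of them had one below the Lin28a lower bound of 0.86; the exceptions were both Dis3l2 rows and Trim71. These bounds do not show that the 9 genes were equal in both columns, since the intervals also hold moderate changes in either direction.

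The order of the members by FPKM was nearly the same in both columns apart from Lin28a. In case it ran Drosha, Lin28a, Xpo5, Zcchc11, Dicer1, Dgcr8, Zcchc6, Dis3l2, Trim71 and Lin28b, with Lin28a 2nd. In control it ran Drosha, Zcchc11, Xpo5, Dicer1, Dgcr8, Zcchc6, Lin28a, Dis3l2, Trim71 and Lin28b, with Lin28a 7th. Xpo5 and Zcchc11 also exchanged places, and without values per library it cannot be said whether neighbours in this order differ. Among all genes with a mean of at least 1 FPKM, Lin28a stood at percentile 71.7 by its case level and 40.9 by its control level, while Drosha stood at 85.1 in case and 85.2 in control.

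Genes that work around the let-7 pathway differed little as well. Over 7 lists, 98 genes were in the table and 96 had a mean of at least 1 FPKM. Of these, 64 (66.7%) were higher in case and 32 lower, where 60.8% of all genes at that level were higher. Their median difference of log2(FPKM + 1) was 0.04, where the median over all genes was 0.03. Of the 75 genes with a p-value in the authors' deposited table, 0 had a q-value under 0.05, against 0.0514% of all tested rows. At an unadjusted p under 0.05 it was again 0, against 1.28% of all tested rows. With shares this low over all rows, counts of 0 among 75 genes say little about these genes. The folds of the 96 genes lay between 0.772 and 1.36.

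Partners of the Microprocessor and Dicer had 9 of 14 genes higher in case and a median difference of 0.02, which turned to -0.01 after rescaling by the median ratio. Tarbp2, a double-stranded RNA-binding partner of Dicer, was at 11.5 FPKM in case and 10.1 FPKM in control, and Prkra, a related partner, at 61.1 FPKM in case and 64.7 FPKM in control. Tardbp, which binds both nuclease complexes, was at 42.0 FPKM in case and 39.3 FPKM in control. Proteins other than LIN28 that bind let-7 precursors or affect microRNA processing had 14 of 16 genes higher, with a median of 0.10. Msi1, known to work with LIN28 in blocking let-7 processing in mouse neural cells, was at 59.4 FPKM in case and 50.4 FPKM in control. Msi2 was at 23.4 FPKM in case and 21.1 FPKM in control, and the RNA-binding protein gene Syncrip at 41.9 FPKM in case and 39.7 FPKM in control.

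Argonaute and other silencing complex genes had 11 of 17 members higher and a median of 0.07. Ago2, the slicing Argonaute, was at 7.18 FPKM in case and 6.13 FPKM in control, while Ago4 was at 2.44 FPKM in case and 3.13 FPKM in control. Limd1, an Argonaute-binding protein gene, was at 9.52 FPKM in case and 8.33 FPKM in control. The exportin family outside Xpo5 had 3 of 8 genes higher and a median of -0.02. Ipo13, a bidirectional transport receptor, was at 12.6 FPKM in case and 14.2 FPKM in control, the export receptor gene Cse1l at 60.2 FPKM in case and 64.7 FPKM in control, and the tRNA exportin gene Xpot at 13.3 FPKM in case and 12.3 FPKM in control.

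Terminal nucleotidyltransferases and poly(A) polymerases outside Zcchc11 and Zcchc6 had 7 of 10 genes higher and a median of 0.11. The member with the smallest p was Tent5d, whose main row was at 1.64 FPKM in case and 3.27 FPKM in control (p = 0.0587 in the authors' deposited table) and whose 2 rows summed to 2.69 and 3.28 FPKM. Papolg, a poly(A) polymerase, was at 11.0 FPKM in case and 14.3 FPKM in control, and Tent5c at 13.6 FPKM in case and 10.4 FPKM in control. The RNA exosome and related exonucleases had 16 of 27 genes higher and a median of 0.03. Of their 26 p-values in the authors' deposited table, 0 were under 0.05, against 1.28% of all tested rows. Exosc6, a core exosome subunit, was at 10.4 FPKM in case and 8.75 FPKM in control, Eri2 at 10.7 FPKM in case and 9.22 FPKM in control, and Ttc37, of the SKI complex, at 8.34 FPKM in case and 7.63 FPKM in control. All 4 TRIM-NHL genes related to Trim71 were higher in value, with a median of 0.15, where 60.8% of all genes were higher. The 3 with a p-value in the authors' deposited table had p of 0.468 or more. Trim2 was at 3.69 FPKM in case and 3.10 FPKM in control, Trim3 at 8.61 FPKM in case and 7.52 FPKM in control, and Trim56 at 1.91 FPKM in case and 1.77 FPKM in control.

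**Figure D4:**
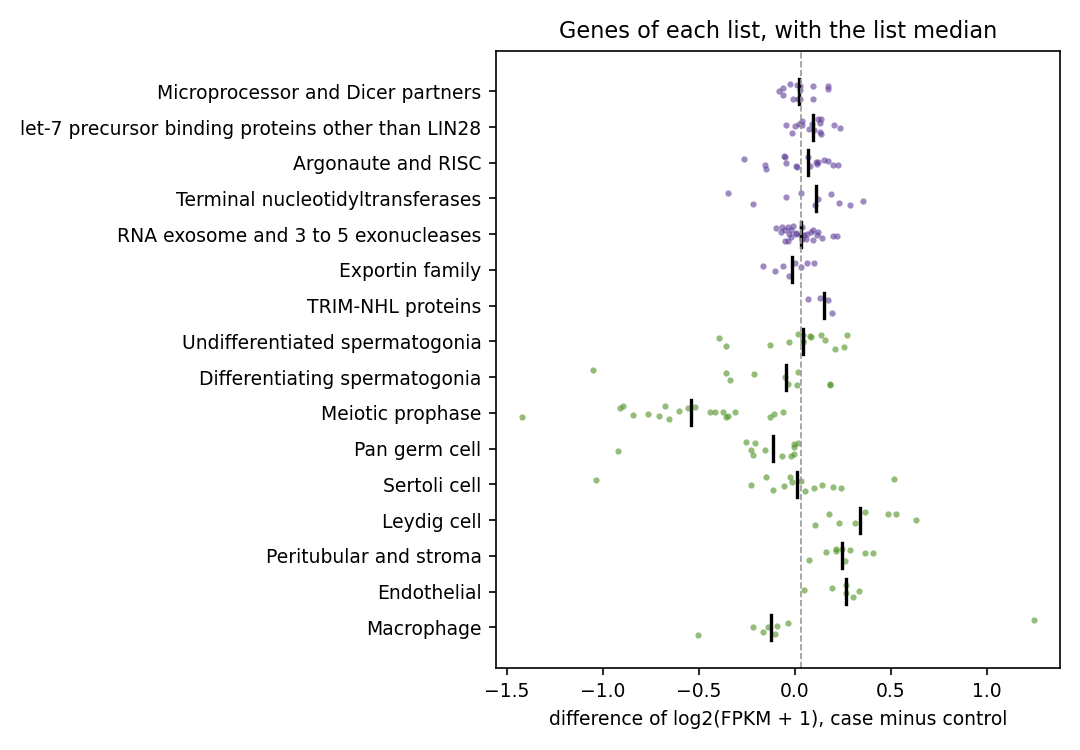
Difference of log2(FPKM + 1), case minus control, of each gene with a mean of at least 1 FPKM (points) in 7 pathway lists (purple) and 9 cell type lists (green), with the list median (black bar) and the median over all genes (dashed line at 0.03). The pathway lists have medians between -0.02 and 0.15, the meiotic prophase list lies at -0.54 and the Leydig list at 0.34.

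The cell types that can carry Lin28a were followed with marker lists, since in bulk tissue fewer cells of a type and less RNA per cell cannot be told apart. Markers of undifferentiated spermatogonia summed to 118 FPKM in case and 114 FPKM in control, a ratio of 1.04, with 11 of 15 genes at a mean of at least 1 FPKM higher in case and a median difference of 0.05. All 20 of these markers were above 0 in both columns. Zbtb16 (PLZF) was at 16.8 FPKM in case and 14.9 FPKM in control, and Gfra1, a receptor for the stem cell niche factor GDNF, was at 6.83 FPKM in case and 6.99 FPKM in control. Of the markers with the smallest p, Nanos2, below the minimum of 1 FPKM in its mean, was at 0.540 FPKM in case and 1.09 FPKM in control, Id4 at 4.94 FPKM in case and 6.61 FPKM in control, and Utf1 at 1.71 FPKM in case and 2.56 FPKM in control. Per summed level of these markers Lin28a came to 19.8% in case and 7.75% in control, a 2.55-fold difference. Without that scaling the Lin28a difference was 2.66-fold. The part of cell numbers in it was not tested. Zbtb16 and Gfra1 were named after their values were seen.

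Marker lists of later germ cell stages and of somatic cells are given beside Lin28a, and their part in its difference was not tested. Meiotic prophase markers were lower in case in 20 of 20 genes, with a median difference of -0.54 and sums of 434 FPKM in case and 628 FPKM in control, and in the authors' deposited table, of the 18 with a p-value, 7 had p under 0.05, against 1.28% of all tested rows, and 0 a q-value under 0.05. These 7 were Meiob, Hormad1, Sycp2, Dmc1, Sycp1, Prdm9 and Meioc. The recombination gene Meiob was at 1.92 FPKM in case and 6.82 FPKM in control, and Dmc1, the meiotic recombinase, at 14.2 FPKM in case and 24.9 FPKM in control. The chromosome axis genes Hormad1 and Sycp2 were at 15.6 and 15.3 FPKM in case, against 29.8 and 24.9 FPKM in control, and the synaptonemal complex gene Sycp1 at 38.5 FPKM in case and 59.1 FPKM in control. Prdm9, the hotspot methyltransferase of meiotic recombination, was at 4.69 FPKM in case and 8.27 FPKM in control, and Meioc, a regulator of meiotic transcripts, at 17.9 FPKM in case and 26.1 FPKM in control. Differentiating spermatogonia summed to 291 FPKM in case and 340 FPKM in control (4 of 10 genes higher, median -0.04), and pan germ cell genes to 635 FPKM in case and 768 FPKM in control (1 of 12 higher, median -0.11). Prss50, a testis protease gene in the differentiating list, was at 22.2 FPKM in case and 47.0 FPKM in control. Tex101, a germ cell surface protein gene in the pan germ cell list, was at 87.0 FPKM in case and 165 FPKM in control. They were 1 of 7 and 1 of 12 list members with a p-value in the authors' deposited table to have p under 0.05, against 1.28% of all tested rows, and their q-values there were 0.292. Lin28a relative to the pan germ cell sum was 3.70% in case and 1.15% in control, a 3.22-fold difference. That sum includes Tex101, whose difference of -0.92 was the largest in size of the list. The 3.22-fold value thus depends in part on this gene and is not a level per germ cell.

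Among somatic cells, Leydig markers summed to 386 FPKM in case and 305 FPKM in control (8 of 8 higher, median 0.34), peritubular and stromal markers to 925 FPKM in case and 784 FPKM in control (9 of 9 higher, median 0.25), and endothelial markers to 41.2 FPKM in case and 34.2 FPKM in control (6 of the 6 genes with a mean of at least 1 FPKM higher, median 0.27). The endothelial sum also holds the 7th marker, Flt1, which lay below that level at 0.866 FPKM in case and 0.906 FPKM in control. Sertoli markers summed to 5501 FPKM in case and 5623 FPKM in control (7 of 14 higher, median 0.01), and macrophage markers to 78.7 FPKM in case and 92.5 FPKM in control (1 of 8 higher, median -0.12). At an unadjusted p under 0.05 in the authors' deposited table, 1 of 8 Leydig, 1 of 14 Sertoli and 1 of 8 macrophage markers passed, against 1.28% of all tested rows. None of the 8 stromal and 5 endothelial markers with a p-value there did, and 0 somatic markers had a q-value under 0.05. Hsd17b3, an enzyme of testosterone synthesis, was at 38.7 FPKM in case and 24.6 FPKM in control. The Sertoli homeobox gene Rhox5 was at 8.90 FPKM in case and 19.3 FPKM in control. Cd74, the invariant chain of antigen presentation, was at 6.22 FPKM in case and 2.04 FPKM in control, and was the one macrophage marker with a higher value in case. The stromal genes with the smallest p were the collagen gene Col1a1 at 69.9 FPKM in case and 53.9 FPKM in control, the transcription factor gene Tcf21 at 55.5 FPKM in case and 41.5 FPKM in control, and the contractile gene Tagln at 53.6 FPKM in case and 44.6 FPKM in control. The endothelial ones were the coreceptor gene Eng at 9.76 FPKM in case and 7.73 FPKM in control, the receptor gene Robo4 at 3.14 FPKM in case and 2.28 FPKM in control, and the VEGF receptor gene Kdr at 4.14 FPKM in case and 3.27 FPKM in control. No marker in these lists was listed at 0 in either column.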

How the data were processed

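The submitters' processing notes list TopHat2 (2.0.9), an aligner, and the mm10 build; which program computed expression is not stated. For each RefSeq transcript the authors deposited FPKM in 2 columns, case and control, with 1 pooled value per group. Beside them, per the file headers, stand a log2 ratio, a status, a test statistic (a score with no fixed range), and its p-value and q-value. From their names alone, case was taken for knockout and control for wild type. In the 13586 tested rows with both values above 0 the deposited log2 ratio had control on top, to within 5.01e-05, and was turned round here; another 43 tested rows were at 0 in 1 column. The q-values matched a Benjamini-Hochberg adjustment over the 13629 tested rows, to within 2.26e-06, and the p-values matched a two-sided normal reading of the statistic, to within 2.77e-06. How replicate libraries entered that test is not stated.

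The standard error of a log2 ratio was taken as that ratio divided by the authors' statistic, and 95% intervals as 1.96 errors on either side. They measure the authors' test, not a spread between libraries seen here. A run on simulated data checked only the arithmetic of this step, because the simulated statistic was built as ratio over error. That run could not check whether the authors' statistic has this form. Starts were read as counting from 0 and 1 was added. Symbols came by accession from RefSeq (GRCm38.p6) for 29071 of 29660 accessions (98.0%), otherwise from the table. FPKM was summed per gene; differences used log2(FPKM + 1), which understates changes of low genes, and lists kept genes with a mean of at least 1 FPKM. A list gene's p-value is that of its highest row. Calls are the authors', at q under 0.05. With no values per library, no test of differences between libraries could be run. The members and lists were chosen with earlier results of these data known. The genes named are the 10 members and, from each list, those with p under 0.05 or else the 3 smallest p-values; Zbtb16, Gfra1, Flt1 and the let-7 host genes were named after their values were seen. Alternatives were other pseudocounts, scalings, filters, row choices and adjustments. Python 3.11.15, pandas 2.3.3, numpy 2.4.6, scipy 1.17.1 and matplotlib 3.10.9 were used.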

Additional observations from a re-analysis of the deposited data

How the results depend on the processing

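The Lin28a difference of 1.32 on the log2(FPKM + 1) scale lay between 1.28 and 1.40 under the 6 alternatives run (pseudocounts of 0.1 and 0.5, rescaling by the median ratio of 1.02 or the upper quartile ratio of 1.01, the highest row of each gene, and rows with status OK only). All 60 member values under these settings moved by less than 0.1. Drosha alone changed sign, to -0.03 with the median ratio and -0.01 with the upper quartile. Dis3l2 lay between 0.08 and 0.17. The count of 1 member row and the count of 7 rows in all with a call were unchanged at a threshold of 0.10. They were also unchanged when p-values were adjusted over tested rows with a mean of at least 1 FPKM or over all rows. All 80 list medians under 5 alternatives moved by less than 0.1. With the median ratio, the medians of the Microprocessor, exosome and Sertoli lists changed sign, to -0.01, -0.00038 and -0.02. Leaving out a library was not possible with pooled columns. No paired analysis was possible because the columns carry no replicate numbers. The read depth behind the values is not known, so no limit from counting can be given.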

Other observations

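Some let-7 hairpins lie inside longer genes on the same strand, whose rows do carry values. These genes were chosen after the data were seen, by overlap in RefSeq coordinates. Wdr82, which spans let-7g, was at 45.8 FPKM in case and 46.7 FPKM in control, with p = 0.910 in the authors' deposited table. Huwe1, a ubiquitin ligase gene that spans let-7f-2 and miR-98, was at 58.9 FPKM in case and 58.2 FPKM in control, with p = 0.954 in the authors' deposited table. Mir100hg, the noncoding transcript around let-7a-2, was at 4.80 FPKM in case and 3.49 FPKM in control over its 2 rows, with p = 0.282 for the main row in the authors' deposited table. Spaca6, which spans let-7e, was at 1.04 FPKM in case and 0.779 FPKM in control, with p = 0.60 in the authors' deposited table. None of these values measures the hairpin or the mature microRNA.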
